A study of Caenorhabditis elegans with 4 samples.

Results

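Regions of RNA that were listed as peaks both in the immunoprecipitation of MSTR-1::FLAG and in the immunoprecipitation of untagged worms were compared here. An MSTR-1 peak and an N2 peak formed a pair when they lay on the same chromosome and strand and shared at least 1 bp, and each N2 peak was kept with the MSTR-1 peak that shared most of it. Of 310 N2 peaks 227 had such a partner (73.2%, exact Clopper-Pearson 95% interval 67.9 to 78.1), which used 221 of the 2664 MSTR-1 peaks. The libraries were eCLIP libraries, in which RNA is crosslinked to protein by UV light and sequenced after the protein is pulled down, made from whole lysates of young adult Caenorhabditis elegans kept at 25 °C on standard NGM. The tagged worms carried on49, a 3xFLAG tag in the gene F22D6.2 on chromosome I, and gave 2 CLIP libraries, which the design text calls biological replicates, and 1 size-matched input. All worms were irradiated with UV at 1.2 mJ/cm2. The wild-type strain N2 carried no FLAG and gave 1 CLIP library, and no input of N2 worms was used here. The columns do not say which tagged library is which, so they are called libraries A and B.

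In CLIP, an immunoprecipitation from worms without the tag captures RNA that comes down with beads and antibody in the absence of a tagged protein. A region that stands out from the input in both genotypes is therefore compared by how far it stands out in each. Abundant and structured RNAs, such as ribosomal RNA, transfer RNA and the messengers of muscle and cuticle proteins, are commonly recovered in such experiments. The gene of the tagged protein itself, mstr-1, had 1 MSTR-1 peak and belonged to 0 pairs.

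The fold of a region was its CLIP value over its input value in the same table, with the authors' scaling, and the MSTR-1 fold was the mean of libraries A and B. Shared peaks held a median of 96 reads (A), 154 reads (B) and 26 reads (N2). The median of input reads was 35 over the MSTR-1 peaks and 27 over the N2 peaks. Of the 227 pairs 190 lay over exactly 1 gene, 32 over more than 1 and 5 over none, and 223 had input reads in both tables. The N2 peaks were shorter, with a median of 127 nt against 249 nt, and 159 of them lay wholly inside their MSTR-1 partner. At 4 pairs fewer than 10 bp were shared, and 11 pairs shared an MSTR-1 peak with another pair.

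With the authors' scaling, N2 CLIP stood further above the input than MSTR-1 CLIP at most shared regions. Over 223 pairs the median fold was 1.96 (A), 1.85 (B) and 3.15 (N2). The lower and upper quartiles were 1.30 and 3.33 for the MSTR-1 mean and 1.51 and 6.98 for N2. N2 lay above both MSTR-1 libraries at 170 pairs (76.2%), below both at 39 (17.5%) and between them at 14. It was at least 2-fold above both at 62 pairs (27.8%) and at least 2-fold below both at 1 (0.448%). The median ratio of N2 to MSTR-1 was 1.56, and it ran from 0.393 to 13.2. Libraries A and B differed by a median of 0.26 on the log2 scale, against 0.71 between the MSTR-1 mean and N2, and the second gap was the wider one at 184 pairs. These gaps are not like for like, since A and B share the MSTR-1 peak and its input reads. N2 has its own peak, with other input reads at 151 pairs, and its gap also holds the scaling between the tables. N2 has 1 library, so its own spread was not measured, and in whole-worm lysate fewer cells of a type and less RNA per cell cannot be told apart.

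**Figure D1:**
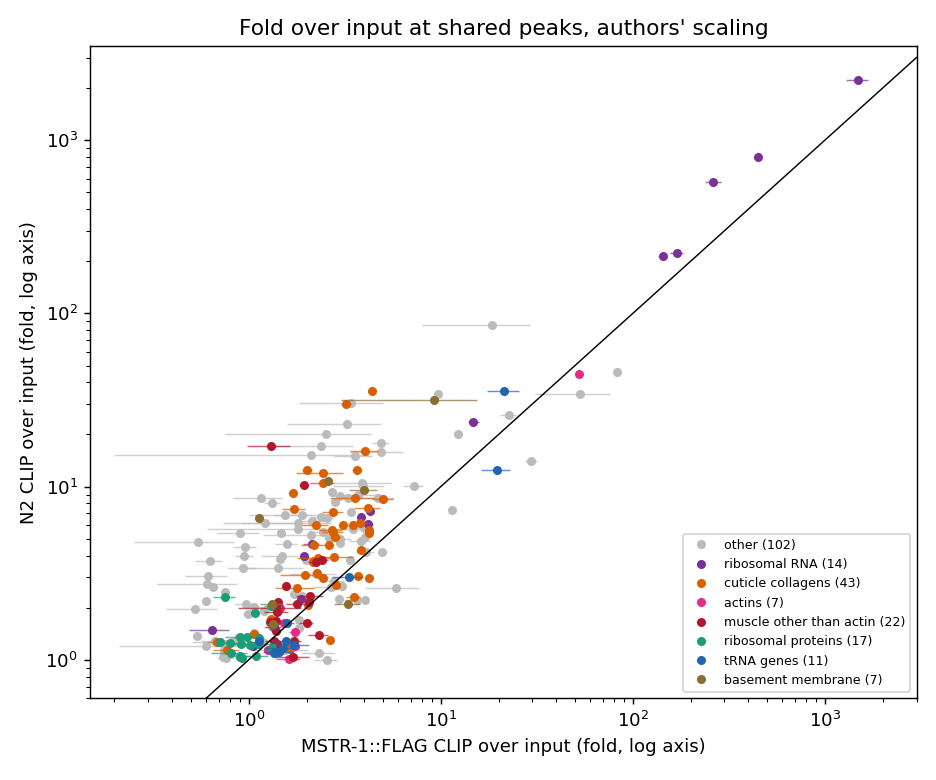
Fold over input in MSTR-1::FLAG CLIP (x axis, log scale, mean of libraries A and B, with a line from the lower to the higher library) against fold over input in N2 CLIP (y axis, log scale) for 223 pairs, coloured by gene class. N2 lies above both libraries at 170 pairs and below both at 39, and the highest folds belong to rRNA pairs. The line of 1 pair without a read in library A is cut short at the left.

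That direction rested on how the N2 table was scaled. The size factor of a CLIP library over that of the input was 1.33 for library A and 2.20 for library B, and 0.349 for N2. The totals of reads inside peaks, CLIP over input, were 5.96, 8.78 and 3.09. With TMM factors the median fold was 1.43 for MSTR-1 and 0.750 for N2, and N2 was the higher at 20.2% of pairs. DESeq2's size factors gave medians of 1.47 and 0.679, with N2 higher at 17.04%. Column totals gave 0.458 and 0.356, with N2 higher at 32.3%, and totals without rRNA peaks gave 1.86 and 1.78, with N2 higher at 43.05%. All these factors were computed inside each peak list by itself, and DESeq2's centre the N2 peaks with input reads on the input. With the authors' scaling, shared N2 peaks had a lower median fold than unpaired ones (3.15 against 15.8). MSTR-1 peaks that overlap an N2 peak had a higher one than the rest (1.93 against 1.33). The direction with these factors was thus partly set by the lists and is no independent check. On the log2 scale the median MSTR-1 minus N2 difference was -0.64 with the authors' factors, 0.42 with column totals, 0.12 with totals without rRNA, 0.99 with TMM and 1.17 with DESeq2's. Whether N2 or MSTR-1 was higher at a shared region is therefore not settled by these files. Gene classes are described below relative to the median of all 223 pairs, and a common scaling factor does not move such differences. Where pairs are left out, the reference is the median of the pairs kept.

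**Figure D2:**
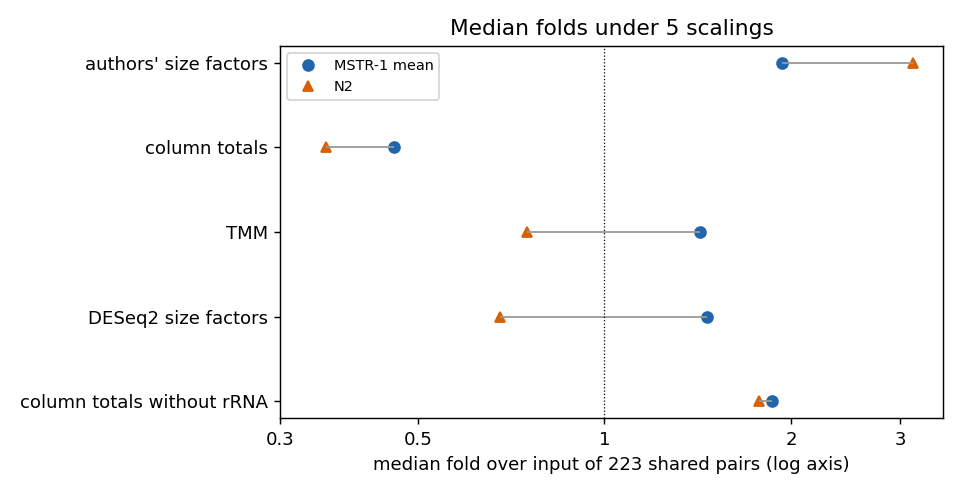
Median fold over input (x axis, log scale) of 223 pairs in MSTR-1 CLIP (circles, mean of both libraries) and N2 CLIP (triangles) under 5 scalings. N2 lies above MSTR-1 only with the authors' size factors (3.15 against 1.93), and below it with the other scalings shown.

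The listing of peaks also bears on the comparison. No N2 peak has a fold under 1, the lowest at a shared region being 1.002, whereas the MSTR-1 mean went down to 0.528. The MSTR-1 mean was under 1 at 37 pairs, and N2 had to be the higher there. The ratio also moved with the input reads of the N2 peak, which are the denominator of the N2 fold. Shared N2 peaks held at least 11 N2 reads, so few input reads favour a high ratio by construction. At 48 pairs with 1 to 9 input reads in the N2 peak the median N2 to MSTR-1 ratio was 3.51. It was 1.67 at 74 pairs with 10 to 29 reads, 1.26 at 75 pairs with 30 to 99 and 1.27 at 26 pairs with 100 or more. Along N2's own reads the medians were closer, at 1.99 for 37 pairs with 11 to 14 N2 reads and 1.45 for 47 pairs with 50 or more. The input reads of a pair can be equal in both tables while their scaling is not, since the input's size factor in the N2 table was 2.44 times that in the MSTR-1 table. At 72 pairs with equal input reads N2 was higher at 53 with a median ratio of 1.48. At the other 151 pairs it was higher at 124, with a median ratio of 1.57.

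**Figure D3:**
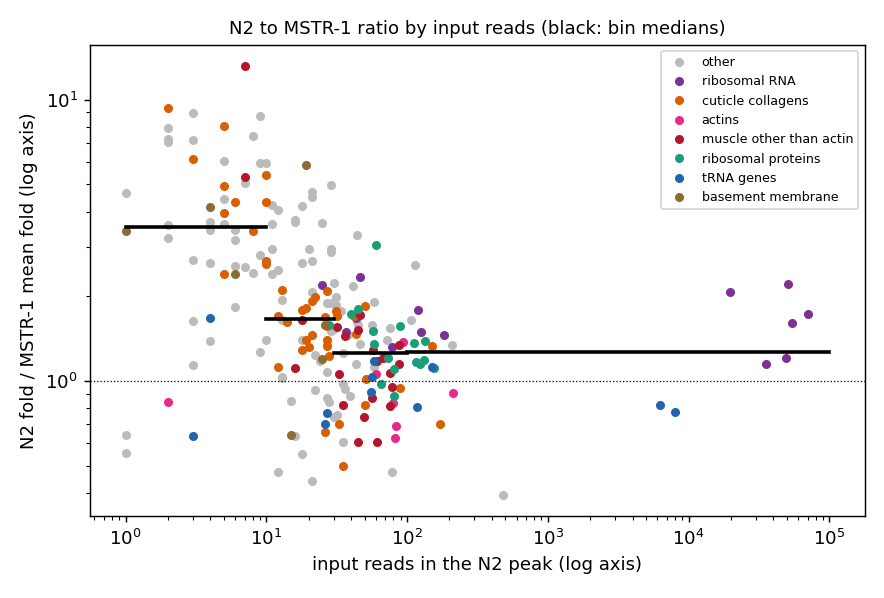
Ratio of the N2 fold to the MSTR-1 mean fold (y axis, log scale, authors' scaling) against input reads in the N2 peak (x axis, log scale) for 223 pairs, coloured by gene class. Black lines are bin medians, which go from 3.51 at 1 to 9 input reads to 1.27 at 100 or more. The input reads on the x axis are also the denominator of the N2 fold.

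Both folds are divided by reads of the same input library, whose part in their correlation was not tested. Across 223 pairs, which are not independent replicates, Spearman's rho between MSTR-1 and N2 folds was 0.71, and Pearson's r of the log2 folds was 0.83. Between libraries A and B rho was 0.84, between A and N2 0.65 and between B and N2 0.68. A and B share peak and input reads and N2 has its own, so these values are not like for like. Among 98 pairs with at least 30 input reads in both tables rho of MSTR-1 and N2 was 0.68.

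Single pairs were tested with limma on log2 folds with 1 read added, over all 227 pairs, with N2 assumed to vary like the MSTR-1 libraries. N2 was higher at 18 pairs (7.93%) and MSTR-1 at 0 (0%, with 5 at an unadjusted p under 0.05). edgeR on the recovered reads gave 19 (8.37%) and 1 (0.441%), and 7 of limma's 18 were called by edgeR too. limma's adjusted p at its 18 pairs lay between 0.041 and 0.049, so the calls sit at the threshold. The ratio of N2 to MSTR-1 at the called pairs with input reads ran from 3.30 to 13.2, and 8 of the 18 had under 10 input reads in a table. With TMM limma called 5 pairs higher in N2 (2.2%) and 106 higher in MSTR-1 (46.7%), and with DESeq2's factors 4 (1.76%) and 119 (52.4%). Both sets of factors were computed inside each list, with the limit given above. With N2 centred on the median of all pairs, an alternative added after seeing the data, limma called 0 in either direction, with 40 pairs at an unadjusted p under 0.05 on the N2 side and 38 on the MSTR-1 side, and edgeR also called 0.

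Of the named classes with at least 7 pairs, those over transfer RNA genes and actin genes lay furthest on the MSTR-1 side of the all-pair median, followed by other muscle genes and ribosomal proteins. rRNA and cuticle collagens lay close to the median, and basement membrane genes on the N2 side. The exception was the 4 of their pairs with at least 10 input reads in both tables, all over let-2. Their relative median was 0.023 against the pairs so kept and 0.19 against all pairs. Both MSTR-1 libraries lay on the MSTR-1 side at 43.5% of all pairs and both on the N2 side at 43.5%, each library set against its own median over all pairs. The classes differ in their input reads over the MSTR-1 peaks. The medians were 121 for actins, 120 for rRNA, 103 for ribosomal proteins and 71 for muscle. They were 56 for tRNA genes, 34 for collagens and 19 for basement membrane. This order is not that of the relative medians, which were -0.067 for rRNA and 0.93 for tRNA genes. The part of input reads in the order of the classes was examined by keeping the pairs with at least 30 input reads in both tables. The reference was then the median of the 98 kept pairs, whose median N2 to MSTR-1 ratio was 1.23 against 1.56 over all 223. Against it the relative medians were 0.51 for 6 actin pairs, 0.44 for 7 tRNA pairs and 0.16 for 18 muscle pairs. They were 0.087 for 12 collagen pairs, -0.047 for 16 ribosomal protein pairs and -0.37 for 13 rRNA pairs. The change of reference is part of any shift from the values over all pairs.

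**Figure D4:**
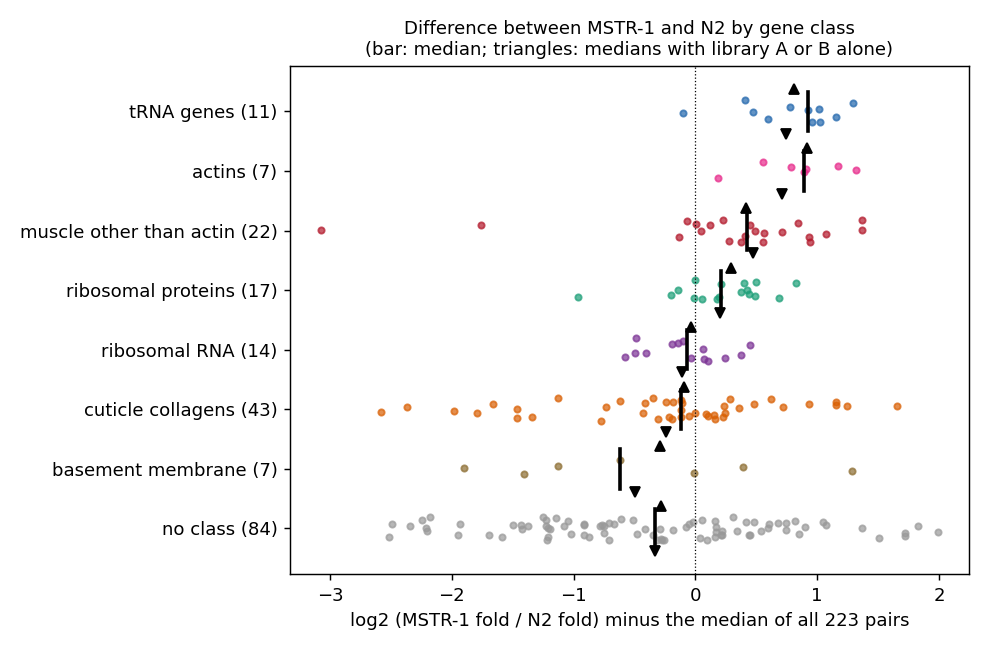
log2 of the MSTR-1 mean fold over the N2 fold, minus the median of all 223 pairs (x axis), by gene class (y axis, number of pairs in brackets); each point is a pair, bars are class medians and triangles are the medians with library A alone (pointing down) or B alone (pointing up). The tRNA and actin medians lie at 0.93 and 0.89, and that of basement membrane at -0.62.

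Transfer RNAs carry amino acids to the ribosome, and their genes are short and often present in many copies. The 11 pairs over tRNA genes had a median fold of 1.57 in MSTR-1 CLIP and 1.29 in N2 CLIP with the authors' scaling, and the relative median was 0.93 on the log2 scale (0.74 with library A alone, 0.81 with B alone). Both libraries lay on the MSTR-1 side at 10 of the 11 pairs, and all 11 had equal input reads in both tables, so their ratios differ by CLIP reads and size factors alone. The deepest was over C39D10.t2 and the noncoding C39D10.17 (chromosome X, 7898303 to 7898381). Its reads, here and below in the order A, B and N2, were 17952, 20984 and 3108, over 7993 input reads. Its folds were 1.69 in A, 1.19 in B and 1.11 in N2, so N2 was the lowest of the 3 but close to library B. At a pair over C12C8.t3, C12C8.t4 and 3 other genes the folds were 1.18, 1.09 and 1.28, with N2 the highest. At M02F4.t2 and the noncoding M02F4.12 the folds were 1.82, 1.31 and 1.29, again with N2 next to library B. The pair over F56C3.t1 had folds of 3.91, 2.72 and 3.02, with N2 between the MSTR-1 libraries. The tRNA pair with the highest folds, over K01A12.t4, K01A12.t5 and K01A12.3, had 4 input reads and folds of 17.3, 25.4 and 35.8, with N2 above both. A pair over Y17G9A.t1, which also overlaps str-173 and Y17G9A.87, stood at 22.8 and 16.2 in the MSTR-1 libraries and 12.4 in N2, over 3 input reads. limma called 0 of the 11 pairs. The placement of reads among tRNA copies was not recorded, so single tRNA genes are uncertain.

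Small nucleolar RNAs, which guide chemical modification of other RNAs, gave 3 pairs that did not go one way, with a relative median of 1.28. A pair over the snoRNA gene T19C4.12, which also overlaps gpa-1 and T19C4.17, had 253, 391 and 41 reads over 16 input reads. Its folds were 11.9 and 11.1 in the MSTR-1 libraries and 7.34 in N2, so N2 was below both. At F01D5.12, with F01D5.10 and F01D5.14, the folds were 30.9, 75.9 and 34.4 over a single input read, with N2 between the libraries. The snoRNA gene C14E2.12 went the other way, with 18, 49 and 31 reads over 29 input reads and folds of 0.467, 0.768 and 3.06. MSTR-1 lay under the input there and N2 above it (N2 to MSTR-1 ratio 4.96, 95% interval from N2 counting alone 3.37 to 7.04, limma adjusted p = 0.052).

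Ribosomal RNA, the RNA of the ribosome itself, held most reads at shared regions: 97.5% in library A, 97.7% in B and 98.7% in N2 CLIP, against 92.03% and 92.7% of the input in the MSTR-1 and N2 peaks. With the authors' scaling N2 was above both libraries at all 14 rRNA pairs with input reads, against 76.2% of all pairs, with ratios between 1.15 and 2.33. With TMM it was below both at all 14, against 74.0% of all pairs. The relative median was -0.067 with the authors' scaling and -0.068 with TMM. limma called 0 of the 15 rRNA pairs, and edgeR called 4 higher in N2, over rrn-1.1, rrn-1.2 (2 pairs) and rrn-3.1, against 8.37% of all pairs. The called pair over rrn-3.1 had 157732, 214198 and 83162 reads and a ratio of 2.21 (edgeR adjusted p = 0.045, limma adjusted p = 0.083). Another pair over rrn-3.1, the gene of the large ribosomal RNA, and F31C3.14 (chromosome I, 15068041 to 15068320) had the most reads, with 1133545, 1647258 and 447418 over 54201 input reads. Its folds were 15.7, 13.8 and 23.6, so that N2 was 1.60 times the MSTR-1 mean, near the 1.56 of all pairs. At rrn-1.2, a gene of the small subunit's rRNA, and F31C3.13 the folds were 3.84, 3.89 and 6.66. The 5S rRNA genes rrn-4.3 and rrn-4.4 had MSTR-1 means of 4.20 and 4.30 and N2 folds of 6.11 and 7.19. At rrn-4.2, also 5S, the MSTR-1 libraries lay under the input (0.491 and 0.790) and N2 above it (1.49). A pair over the rRNA pseudogene rrn-3.56 and F31C3.16 had the highest folds of all pairs, 1676 and 1296 in the MSTR-1 libraries and 2212 in N2, with a ratio of 1.49. Copies of the rRNA genes have near-identical sequence, and how reads were split among them was not examined. A mitochondrial rRNA peak, over KEF34_r01, had 77, 35 and 30 reads with 2 and 1 input reads, a mean MSTR-1 fold of 18.5 and an N2 fold of 85.9, and its MSTR-1 libraries lay far apart.

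Actins form the thin filaments of muscle and the cytoskeleton. All 7 actin pairs lay on the MSTR-1 side of the all-pair median in both libraries, with a relative median of 0.89 (0.72 with A alone, 0.91 with B alone). With the authors' scaling the folds themselves were close, with medians of 1.62 and 1.45, and N2 was below both libraries at 5 pairs. At act-4 (chromosome X) 3 pairs had MSTR-1 means of 1.62, 1.53 and 1.74 against N2 folds of 1.01, 1.62 and 1.45. The second of these shares only 9 bp between the peaks. The pair at act-1 (chromosome V, 11082051 to 11082249) had 277, 453 and 35 reads, with folds of 1.75 and 1.73 in MSTR-1 and 1.21 in N2. Another act-1 pair had N2 above both libraries, with an MSTR-1 mean of 1.45 and a ratio of 1.38, although the MSTR-1 peak there is longer and holds 280 input reads against 93. The pair over act-3 and T04C12.17 had 146, 221 and 31 reads over 2 input reads and folds of 55.0, 50.2 and 44.4. limma called 0 of the 7, and actin genes are near-identical, so single members are uncertain.

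Muscle genes other than actin had 22 pairs over 8 genes or gene groups, with medians of 1.49 for MSTR-1 and 1.77 for N2 and a relative median of 0.43. Both libraries were on the MSTR-1 side at 15 pairs and on the N2 side at 3. More than any other gene, unc-54, the myosin heavy chain of the body wall muscle, was covered by shared regions. Its 12 pairs, on 9 MSTR-1 peaks between 14856989 and 14861923 of chromosome I, had MSTR-1 means of 1.35 to 2.23 and N2 folds of 1.15 to 3.66. N2 was above both libraries at 8 of them, below both at 3 and between at 1, with a median ratio of 1.11 against 1.56 for all pairs. Some of the peaks hardly overlap. The N2 peak from 14857239 to 14857371 shares 1 bp with its partner, and that from 14858582 to 14858681 shares 26 bp. The highest N2 fold on the gene, 3.66, lay where MSTR-1 was also highest (2.03 and 2.43). At lev-11, the tropomyosin gene, 2 pairs differed. One had 167, 182 and 22 reads over 61 input reads in both tables and folds of 2.06, 1.36 and 1.03, with N2 the lowest. The other had folds of 1.88, 0.883 and 1.99, with N2 the highest. The myosin light chain gene mlc-2 gave a pair with folds of 2.59, 2.04 and 1.40. A second mlc-2 pair had the highest ratio of all, 13.2 (folds 1.64, 0.974 and 17.2, limma adjusted p = 0.045, edgeR adjusted p = 0.042), but its peaks share 15 bp and hold 69 and 7 input reads. The giant muscle protein gene unc-89 had 19, 28 and 25 reads over 7 input reads in both tables, with folds of 2.04, 1.82 and 10.2 (limma log2 difference -2.40, SE 0.26, adjusted p = 0.045, edgeR adjusted p = 0.067). The pairs over unc-27, a troponin I, had N2 to MSTR-1 ratios of 1.34 and 1.11, and the pair over cpn-3, a calponin, had 1.56.

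**Figure D5:**
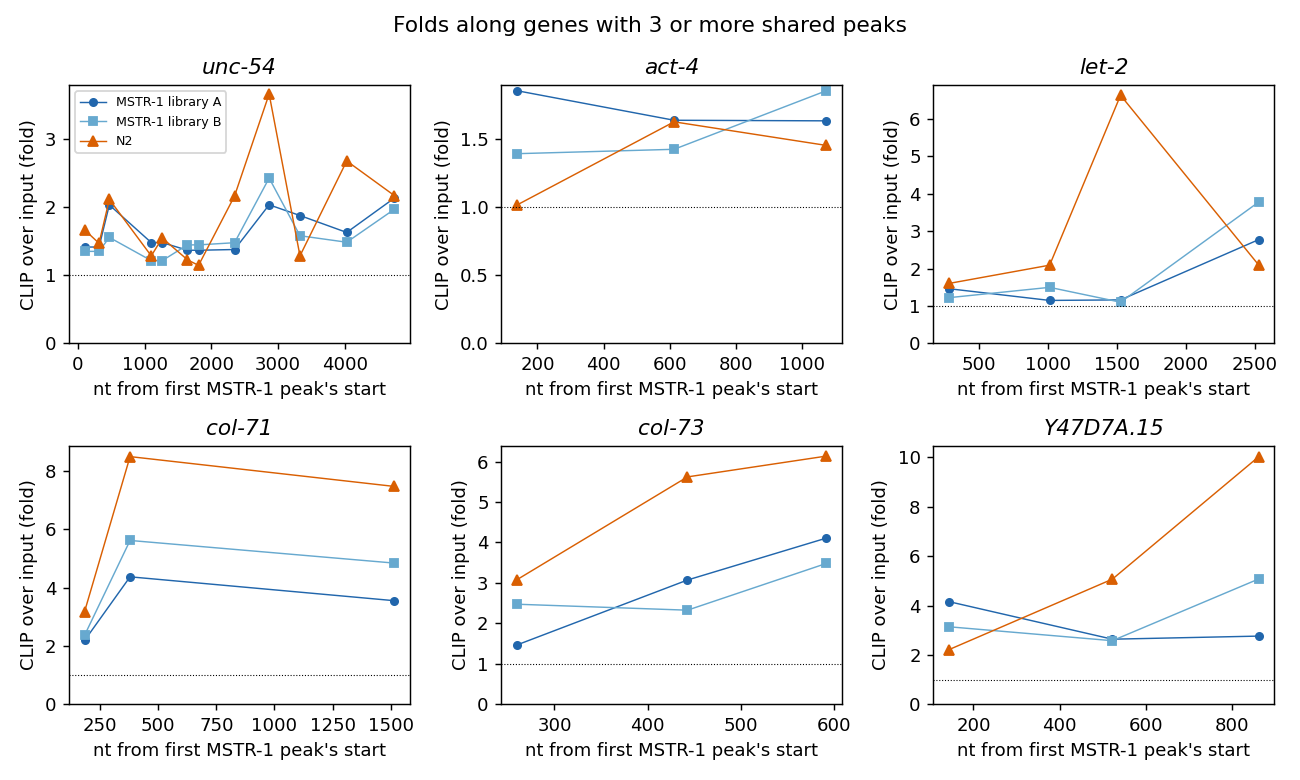
Fold over input (y axis, from 0) in MSTR-1 libraries A and B and in N2 at each shared pair of 6 genes, placed by the centre of the N2 peak in nt from the start of the first MSTR-1 peak of the gene (x axis); the dotted line marks a fold of 1. Along unc-54 N2 lies above both MSTR-1 libraries at 8 of 12 pairs, below both at 3 and between them at 1. It lies above them at every pair of col-71 and col-73, and stands at 6.63 at a single let-2 pair.

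With the authors' scaling, ribosomal protein messengers lay near the input in both genotypes, whereas with TMM their medians were 0.684 for MSTR-1 and 0.295 for N2. The 17 ribosomal protein pairs had MSTR-1 means of 0.709 to 1.32 and N2 folds of 1.03 to 2.29, and limma called 0 of them and edgeR 1, rpl-23. N2 was above both libraries at 14, against 76.2% of all pairs, and at 0 with TMM. The median ratio with the authors' scaling was 1.35. The pair over rpl-27A had 189, 262 and 63 reads over 133 input reads in both tables, with folds of 1.07, 0.895 and 1.36. At rps-2 the folds were 1.18, 1.09 and 1.35, and at rpl-32 they were 0.948, 0.903 and 1.03. The widest gap was at rpl-23, with 0.852, 0.650 and 2.29 (ratio 3.05, 95% interval from N2 counting alone 2.25 to 4.04, with adjusted p = 0.059 in limma and 0.049 in edgeR). The elongation factor gene eef-2 had 2 pairs with MSTR-1 means under the input, 0.744 and 0.535, and N2 folds of 1.15 and 1.38. edgeR called the second of these higher in N2 (adjusted p = 0.045), and limma did not (adjusted p = 0.059). The acidic ribosomal protein gene rplp-2.2, whose symbol the list did not cover, had folds of 0.779, 0.564 and 1.28.

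The outer cuticle of the worm is built from collagens, and the genes of this class had 43 pairs, more than any other class. Their medians were 2.70 for MSTR-1 and 5.12 for N2, and their median ratio of 1.70 was close to that of all pairs (relative median -0.12). N2 was above both libraries at 36, against 76.2% of all pairs, and at 9 with TMM, against 16.6%. limma called 5 higher in N2, against 7.93% of all pairs, and 0 with N2 centred on the median. The 5 were over col-63, dpy-5, sqt-2, col-155 and lon-3 (the last also over ogdh-2). The pair over dpy-5 (chromosome I, 5432818 to 5432932), a procollagen that shapes the body, had 78, 122 and 62 reads with 13 and 5 input reads. Its folds were 4.52, 4.26 and 35.5, and the limma log2 difference was -2.87 (SE 0.27, adjusted p = 0.045, edgeR adjusted p = 0.018). Another pair of the same gene, with 42 and 21 input reads, had MSTR-1 folds of 3.21 and 3.01 and a ratio of 1.93. At sqt-2, also a body-shape collagen, the folds were 1.73, 1.66 and 9.16 (ratio 5.42, with adjusted p = 0.045 in limma and 0.042 in edgeR). All 3 pairs of col-71 and all 3 of col-73 had N2 above both libraries, with ratios of 1.40 to 1.78 and 1.56 to 2.08. At col-77 the 3 N2 peaks fell on 1 MSTR-1 peak (4.24 and 4.18) and had folds of 2.95, 5.62 and 5.41. Both pairs of col-3 had N2 below both libraries, with folds of 3.87, 3.54 and 3.04 at one and 2.84, 2.86 and 2.70 at the other. The pair over col-159 lay on the MSTR-1 side, with 246, 393 and 16 reads and folds of 2.68, 2.59 and 1.31 (N2 to MSTR-1 ratio 0.497, 95% interval from N2 counting alone 0.284 to 0.807, limma adjusted p = 0.083). The col-159 peaks share 67 bp and hold 69 and 35 input reads, which that interval does not cover. How reads were placed among similar collagens was not examined.

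Basement membrane genes, which encode the sheet of matrix under tissues, had 7 pairs with medians of 2.60 and 6.63 and a relative median of -0.62. It was -0.29 without library A, and 0.023 at the 4 pairs with at least 10 input reads in both tables, against the median of all pairs so kept. Those 4 were the pairs of 1 gene, the type IV collagen gene let-2, at 0.19 against the median of all pairs. At 3 of the 4 the N2 folds were 1.60, 2.09 and 2.10, while the remaining pair (chromosome X, 16386027 to 16386137) had 65, 102 and 44 reads with 42 and 19 input reads. Its folds were 1.17, 1.10 and 6.63 (limma log2 difference -2.52, SE 0.23, adjusted p = 0.045, edgeR adjusted p = 0.030). Centred on the median of all pairs, the adjusted p was 0.088 in limma and 0.050 in edgeR, past the threshold in neither. At the last let-2 pair the MSTR-1 libraries were the higher, with 2.77 and 3.78 against 2.10. The other type IV collagen gene, emb-9, had folds of 2.59, 2.60 and 10.7 over 18 and 4 input reads (limma adjusted p = 0.045, edgeR adjusted p = 0.054). At ost-1, the osteonectin gene, the folds were 4.64, 3.33 and 9.55, and at lam-2, a laminin, they were 3.01, 15.4 and 31.5 over 1 input read.

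Among other epidermal genes, the cuticlin gene cut-2 had 99, 164 and 22 reads over 15 input reads and folds of 4.97, 4.97 and 4.20, with N2 the lowest. The ground-like gene grl-16 had 2 pairs, with MSTR-1 means of 4.02 and 3.48 and N2 folds of 5.09 and 5.73. At nlp-33, a peptide gene of the epidermis, 217, 377 and 92 reads over 56 input reads in both tables gave folds of 2.92, 3.06 and 4.70. At nlp-24 the folds were 4.73, 2.66 and 8.95. Both peptide ratios, 1.57 and 2.42, had N2 above both libraries, and neither pair was called. All 3 N2 peaks over hemidesmosome genes, which anchor the epidermis, lacked an MSTR-1 partner, as did 26.8% of all N2 peaks. Vitellogenins and chaperones had 0 N2 peaks against 19 and 26 MSTR-1 peaks, with an overlap of 8.75% over the whole MSTR-1 list.

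Histones, the core proteins of nucleosomes, had 4 pairs. At his-58 (chromosome IV, 11339996 to 11340134) 177, 266 and 19 reads stood against 0 input reads in either table, at least 42.3-fold for MSTR-1 and at least 18.1-fold for N2, taking 3 input reads as the floor. With equal input the pair had a limma log2 difference of 1.15 toward MSTR-1 (SE 0.28, adjusted p = 0.083). A second his-58 pair had folds of 82.1, 83.6 and 45.8 over 1 input read. The pair over his-48 had folds of 12.7, 11.8 and 20.05 over 8 and 3 input reads. At his-17 the order was the reverse of his-58, with folds of 0.872, 0.335 and 2.73, but its peaks share only 18 bp. Histone copies are near-identical, and the placement of reads among them was not recorded.

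The pairs furthest to the MSTR-1 side, among those over 1 gene with at least 10 input reads in both tables and with N2 outside the range of the MSTR-1 libraries, were over epic-2, Y40A1A.5, col-159, C02E7.7, lev-11, mlc-2, Y47D7A.15, act-4, let-2 and act-1. Their N2 to MSTR-1 ratios ran from 0.473 to 0.694, and limma's adjusted p from 0.083 to 0.26. At epic-2 the reads were 291, 328 and 30 and the folds 2.77, 1.89 and 1.10. Y40A1A.5 is annotated as a noncoding RNA (chromosome X, 1993446 to 1993554) and had 438, 840 and 59 reads over 12 input reads in both tables. Its folds were 27.5, 31.8 and 14.1 (ratio 0.475, 95% interval from N2 counting alone 0.362 to 0.613), and N2 was below both libraries. The lowest ratio of all 223 pairs, 0.393, was found close to it, in a region over no annotated gene (chromosome X, 1994210 to 1994324) chosen after its values were seen. It had 1412, 3075 and 169 reads over 483 input reads, with folds of 2.20, 2.89 and 1.002, and was edgeR's only call toward MSTR-1 (adjusted p = 0.049). At C02E7.7, a protein-coding gene, 92, 168 and 14 reads gave folds of 3.85, 4.24 and 2.23. At Y47D7A.15 the 3 pairs did not go one way, with ratios of 0.606, 1.95 and 2.56.

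By the same rule, the pairs furthest to the N2 side were over msp-50, let-2, sqt-2, C14E2.12, asp-1, his-17, col-155, R12E2.15, vha-3 and manf-1, with ratios of 4.05 to 5.94. The major sperm protein gene msp-50 had 7, 16 and 13 reads over 10 input reads in both tables, with folds of 0.527, 0.727 and 3.72 (ratio 5.94, 95% interval from N2 counting alone 3.16 to 10.2, with adjusted p = 0.045 in limma and 0.21 in edgeR). The intestinal protease gene asp-1 had 64, 139 and 33 reads and folds of 0.831, 1.09 and 4.50 (limma adjusted p = 0.045, edgeR adjusted p = 0.043). At vha-3, a subunit of the vacuolar proton pump, the folds were 0.847, 1.05 and 3.98, and at manf-1, a secreted factor of the endoplasmic reticulum, they were 0.690, 0.606 and 2.63. R12E2.15 had 64, 67 and 58 reads over 11 input reads and folds of 4.38, 2.77 and 15.1 (limma adjusted p = 0.059, edgeR adjusted p = 0.045). The glyoxylate cycle gene icl-1 had folds of 2.58, 2.17 and 6.68. Pairs in no class, 84 with input reads, had a median ratio of 1.97 and a relative median of -0.33, and their median of input reads was 24.

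At 3 other pairs the input had 0 reads in a table. ZK180.6 had 7, 15 and 30 reads with 2 and 0 input reads, so N2 was at least 28.6-fold over the input and MSTR-1 3.02-fold, but its peaks share 1 bp. ZC434.9 had 7, 19 and 12 reads, at least 2.32-fold for MSTR-1 and at least 11.5-fold for N2. A small peak on the plus strand of rrn-3.1 had 18, 9 and 14 reads.

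Shared regions differed from the rest of either list in depth. The 83 N2 peaks without an MSTR-1 partner had a median of 15 N2 reads and 2 input reads, and at most 51 N2 reads, and their median fold was 15.8 against 3.15 at shared regions. The 2431 MSTR-1 peaks without an N2 peak had medians of 13 and 22 reads in libraries A and B, against 91 and 146 at the 233 that overlap any N2 peak. Their median fold was 1.33 against 1.93. Of the N2 peaks, all 15 over rRNA, 17 over ribosomal proteins, 11 over tRNA genes, 7 over actins, 7 over basement membrane genes and 4 over histones had a partner, as did 43 of 46 over cuticle collagens, 22 of 24 over muscle genes, 3 of 4 over snoRNA genes and 0 of 3 over hemidesmosome genes, against 73.2% of all N2 peaks. As a share of the MSTR-1 peaks of the class, those with an N2 peak were 100% for rRNA, 38.9% for actins, 21.2% for tRNA genes, 20.4% for muscle, 19.3% for collagens, 12.1% for ribosomal proteins and snoRNA genes and 10.5% for histones, against 8.75% of all MSTR-1 peaks. They were 5.26% for translation factors, 2.86% for genes of the glyoxylate cycle, gluconeogenesis and fat, 2.70% for major sperm proteins and 0% for hemidesmosome genes, vitellogenins and chaperones. Peak calling chose both lists, so these shares were not tested.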

How the data were processed

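The authors deposited a table of MSTR-1 peaks and a table of N2 peaks. Each library column holds a signal, the reads of a peak divided by 1 size factor per library, and the deposited fold is the ratio of CLIP to input (the sum of both CLIP columns in the MSTR-1 table). Divided by the smallest step of its column, each value came within 0.02 of a whole number (100% of values), which gave the reads. The submitters' processing notes name STAR, cutadapt, deepTools and UMI-tools. The genome build, peak caller, thresholds and versions were not given in the sources used here. Column 0.c was taken for the input library in either table.

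Peaks were intersected as half-open intervals on the same strand. The genes of a pair are those of the WBcel235 gene table under its shared segment, on either strand, without 15363 piRNA genes. Coordinates are those of the N2 peak as deposited. limma 3.58.1 (R 4.3.3, trend, Benjamini-Hochberg at 0.05) compared log2 of reads plus 1 over input plus 1. Its p-values leave out counting error of the input and the spread between N2 libraries. The spread between the MSTR-1 libraries is their only measure of error. edgeR 4.0.16 and DESeq2 1.42.0 ran on recovered reads with the scaled input as offset. In 227 simulated pairs limma called 35%, 100% and 90% of pairs changed 2-fold, 4-fold and 8-fold and 12 of 167 unchanged pairs. edgeR called 30%, 70% and 80%, and 1 of 167. limma's 12 false calls stood beside 7, 20 and 18 true ones, a larger share of its calls than the threshold of 0.05 aims at. The simulation gave N2 the same fixed spread as the MSTR-1 libraries and no counting error to the input. It therefore cannot show how the calls fare where either differs. Intervals of 95% around ratios are exact Poisson intervals of N2 reads, so they and the floor of 3 reads cover counting error only.

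Named pairs are the 10 furthest on either side over 1 gene with at least 10 input reads in both tables and N2 outside both libraries, genes with 3 or more pairs, up to 4 members per class with most N2 reads, pairs without an input read, and mstr-1. Other named pairs were chosen after their values were seen. The members, lists and rule were chosen with earlier results of these data known. The gene table holds no strand, so naming genes by strand was not run. Sequences of the regions were not used here.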

Additional observations from a re-analysis of the deposited data

Results flagged for a closer look

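With the authors' scaling both MSTR-1 libraries lay under the input and N2 above it at 28 pairs, and the reverse held at 0. This opposite direction in the genotypes was not tested. With that scaling the N2 list, which holds no fold under 1, fixes it on the N2 side. With other scalings the count was 13 (column totals), 4 (TMM), 3 (DESeq2's factors) and 12 (totals without rRNA). The reverse, with both MSTR-1 libraries above the input and N2 under it, was then found at 2, 57, 63 and 40 pairs, in the same order. The named pairs among the 28 were 2 over eef-2 (N2 fold 1.38 and 1.15), rrn-4.2 (1.49), rplp-2.2 (1.28), msp-50 (3.72), rpl-32 (1.03), rpl-23 (2.29), manf-1 (2.63), his-17 (2.73) and the snoRNA gene C14E2.12 (3.06).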

How the results depend on the processing

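No paired analysis was possible because N2 and the input have 1 library each and the columns carry no replicate number. Without a tagged library the calls have no residual degrees of freedom, so no call was made there. The share of pairs with N2 higher, 79.4%, turned to 32.3% with column totals, 20.2% with TMM, 17.04% with DESeq2's factors and 43.05% with totals without rRNA, and stayed within 1.5 times under the other 9 alternatives. N2-higher calls, 18 in limma, were 5 with TMM, 4 with DESeq2's factors, 0 with totals without rRNA, 44 and 28 with at least 10 and 30 input reads, 0 with at least 50% of the longer peak shared, 0 with an N2 fold of at least 4, 30 without a trend, 0 and 55 with 0.5 and 5 reads added, 136 per nt without the input, and, added after seeing the data, 0 centred, 6 centred with at least 30 input reads and 0 in edgeR centred. MSTR-1-higher calls, 0 in limma, were 44 with column totals, 106 with TMM, 119 with DESeq2's factors, 4 and 7 with at least 10 and 30 input reads, 1 with equal input reads, 1 in edgeR, 2 in DESeq2, 2 with 5 reads added, 4 per nt and 14 centred with at least 30 input reads. The cause was not tested.

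Relative medians, with the library spread as the yardstick, moved as follows. Each was set against the median of all pairs in the same setting, so the reference moved too. With at least 10 input reads they were -0.23 for rRNA, 0.68 for actins, 0.30 for muscle, 0.76 for tRNA genes, 0.044 for ribosomal proteins and 0.023 for basement membrane (turned). The basement membrane pairs left there were all over let-2. With at least 30 they were -0.37 for rRNA, 0.51 for actins, 0.16 for muscle, 0.44 for tRNA genes, 0.087 for collagens (turned) and -0.047 for ribosomal proteins (turned). With at least 50% of the longer peak shared they were -0.14 for rRNA, -0.25 for collagens, 0.30 for muscle and 0.86 for tRNA genes. With equal input reads they were -0.18 for rRNA, -0.91 for collagens, 0.040 for muscle and 0.85 for tRNA genes. With an N2 fold of at least 4 rRNA was 0.58 and collagens 0.22, both turned. Per nt without the input rRNA was 0.47 (turned), actins 1.23, muscle 0.35 and tRNA genes 1.15, and with 5 reads added tRNA genes were 0.80. With 1 tagged library left out the medians ran from -0.24 to -0.094 for collagens, 0.72 to 0.91 for actins, 0.41 to 0.47 for muscle, -0.50 to -0.29 for basement membrane, 0.20 to 0.30 for ribosomal proteins, 0.74 to 0.81 for tRNA genes and -0.11 to -0.039 for rRNA. Requiring 50% of the longer peak left 134 of 227 pairs, and pairing on either strand gave 227. Depth limits the ratios, with 1 to 9 input reads in the N2 peak at 48 pairs, 0 in a table at 4, and a median of 26 N2 reads.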
